A study of Homo sapiens with 15 samples.

Results

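Hypoxia-responsive genes are genes whose RNA is known to rise when cells run short of oxygen, and 10 of them were examined here: VEGFA, ANGPTL4, ADM, LOXL2, P4HA1, P4HA2, BHLHE40, BNIP3, NDRG1 and CA9. Members were found by gene name in the platform annotations of the 2 deposited value tables, using only probe sets assigned to 1 gene. This gave 16 probe sets for 9 of the 10 genes, out of 22215 probe sets and 12149 genes in all, and CA9 was not analysed here. ANGPTL4 was named in the annotation of the first table only. For each gene the brightest probe set was used, by its mean log2 value over all samples, and all 9 members were among the 9111 genes kept after the dimmest 25% were left out.

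The study asked how malignant breast epithelial cells of the human HMT3522 series differ after treatment with agents that return them toward a nonmalignant growth form, using Affymetrix U133A arrays on total RNA of 15 samples. T4R denotes 9 samples of the malignant line T4 that the submitters label as reverted, with 1 sample per agent. The agents were GM6001 (a broad metalloproteinase inhibitor), a treatment labelled MMPs and ADAMs, TNF protease inhibitor–2, PD98059 (which blocks the kinase MEK), LY294002 (which blocks PI3K), dominant-negative Rap1 (a blocking form of a small GTPase), Tyrphostin AG 1478 (an EGFR kinase inhibitor), mAb225 (an antibody against EGFR) and AIIB2 (an antibody against β1-integrin). T4 denotes 3 samples of the same malignant line, and S1 denotes 3 samples of the nonmalignant line, labelled normal. All 3 groups were grown in laminin-rich extracellular matrix gels. The sources used here give no doses, times or oxygen supply, and do not say which samples received the vehicle control. T4 and S1 are 1 line each from the same series, so differences between them belong to this pair of lines. The labels do not tie samples of a group to separate cultures. The p-values therefore reflect only how far these samples spread, and that spread may be technical. No agent was repeated in T4R, so its 9 samples are 9 treatments and not replicates of 1 reverted condition. Unequal effects of these treatments can widen the SDs of T4R and enter the SEs and p-values of its comparisons.

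In cells with enough oxygen, prolyl hydroxylases of the EGLN family mark the subunits HIF1A and EPAS1 of the hypoxia-inducible factors for destruction through VHL. When oxygen is short, these subunits accumulate, pair with ARNT and bind DNA at a short core motif, ACGTG or GCGTG, near genes for blood vessel growth, sugar use and matrix assembly. Several of these genes, VEGFA among them, are also known to respond to growth factor signalling in well-oxygenated cells.

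To show where this core motif stands, the 250 bases before the annotated start are printed for 4 members, 5′ to 3′ on the strand of the gene, from RefSeq in build GRCh38.p14. ANGPTL4 (chr19:8363905-8364154, plus strand), BHLHE40 (chr3:4979187-4979436, plus strand) and P4HA1 (chr10:73096867-73097116, minus strand) are shown because their RNA was lower in T4R than in T4. BNIP3 (chr10:131981924-131982173, minus strand) is shown beside them because its RNA passed the test in no comparison. Capitals mark ACGTG or GCGTG on the printed strand, and CACGT or CACGC where the motif lies on the other strand. The run CACGTG holds the motif on both strands and counts as 2 overlapping matches.
ANGPTL4: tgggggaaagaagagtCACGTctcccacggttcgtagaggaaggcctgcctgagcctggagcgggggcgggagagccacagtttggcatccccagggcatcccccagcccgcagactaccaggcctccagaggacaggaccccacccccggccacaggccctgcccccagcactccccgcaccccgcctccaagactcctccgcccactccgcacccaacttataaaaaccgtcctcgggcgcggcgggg
BHLHE40: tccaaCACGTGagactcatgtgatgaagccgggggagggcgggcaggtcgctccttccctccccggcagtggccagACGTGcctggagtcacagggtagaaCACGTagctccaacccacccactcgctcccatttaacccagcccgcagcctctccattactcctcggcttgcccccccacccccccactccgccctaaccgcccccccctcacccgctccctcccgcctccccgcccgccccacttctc
P4HA1: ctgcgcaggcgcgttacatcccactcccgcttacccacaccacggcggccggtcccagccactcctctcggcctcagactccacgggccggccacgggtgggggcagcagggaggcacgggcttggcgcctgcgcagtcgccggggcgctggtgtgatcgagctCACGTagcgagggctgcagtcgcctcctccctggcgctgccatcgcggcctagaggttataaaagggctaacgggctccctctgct
BNIP3: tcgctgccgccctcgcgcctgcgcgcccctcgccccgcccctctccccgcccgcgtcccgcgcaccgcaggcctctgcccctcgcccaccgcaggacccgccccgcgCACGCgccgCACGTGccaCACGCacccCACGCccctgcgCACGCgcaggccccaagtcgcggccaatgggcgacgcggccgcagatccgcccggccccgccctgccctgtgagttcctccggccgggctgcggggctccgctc
ANGPTL4 and P4HA1 held 1 match each, BHLHE40 held 4 and BNIP3 held 6. Of the 9 members, 6 matched the promoter table by symbol, and VEGFA, LOXL2 and NDRG1 did not. Among those 6, ADM also held 1 match and P4HA2 held 0, so that 5 of 6 had at least 1. The motif occurred in 43.1% of the 27305 promoters of the table over the same length. A match is a description of these letters and does not show that a factor binds there.

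The deposited values are log2 expression levels, with sample medians of 7.3 to 7.4. They come as 2 tables, one per array type. The first holds the T4R samples with GM6001, MMPs and ADAMs and LY294002, all 3 T4 samples, and S1 samples 1 and 2. The second holds the other 6 T4R samples and S1 sample 3. A constant difference between tables was therefore fitted as a block in every comparison. T4 sample 3 stood apart from T4 samples 1 and 2, with 234 of 9111 genes (2.57%) at least 2-fold lower and 131 (1.44%) at least 2-fold higher than their mean. T4 samples 1 and 2 differed by that much in 6 genes. Of 8 measured markers of mammary epithelium, 6 lay above the median of every sample, and 1, KRT19, lay below the lower quartile of every sample. Of 7 endothelial, 4 leukocyte and 7 fibroblast markers, 0 lay above the median of every sample. Some of these still lay above the median in a part of the samples. COL1A1 ran from 8.82 to 10.67 in T4R, with means of 8.94 in T4 and 8.05 in S1. DCN reached 9.57 in T4R, and CD14 averaged 7.99 in T4. The mean log2 level of the endothelial list ranged from 6.86 to 7.01 in T4R, from 6.84 to 6.89 in T4 and from 6.89 to 7.01 in S1. That of the leukocyte list ranged from 6.94 to 7.12 in T4R, from 7.02 to 7.32 in T4 and from 6.92 to 6.97 in S1, and that of the fibroblast list from 7.28 to 7.78 in T4R, from 7.25 to 7.37 in T4 and from 7.16 to 7.17 in S1.

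Among the secreted factors, VEGFA (probe set 210512_s_at), the main growth factor for blood vessels, stood at 7.14, 7.60 and 8.86 (lowest, median and highest of 9) in T4R, at 9.86, 9.34 and 9.15 in T4 samples 1, 2 and 3, and at 7.58, 8.10 and 7.70 in S1 samples 1, 2 and 3. On this probe set every T4 level lay above every T4R and S1 level, and T4R overlapped S1. On the 3 other VEGFA probe sets T4 lay above S1 as well, but dominant-negative Rap1 lay inside the T4 range, at 7.62, 7.73 and 8.02, and the 8 other T4R samples lay below it. ANGPTL4 (probe set 221009_s_at), a secreted inhibitor of lipoprotein lipase, stood at 6.91, 7.10 and 7.42 in T4R, at 10.42, 9.14 and 9.77 in T4 samples 1, 2 and 3, and at 7.32, 7.32 and 6.92 in S1. T4 again lay wholly above both other groups, and T4R and S1 covered nearly the same range. The ANGPTL4 level lay below the sample median in 11 of 15 samples and below the lower quartile in 0, so T4R and S1 met at dim levels. ADM (probe set 202912_at), the precursor of the vessel-widening peptide adrenomedullin, was highest in S1, at 7.08, 7.36 and 8.43 in T4R, at 7.53, 7.14 and 7.16 in T4 samples 1, 2 and 3, and at 8.12, 8.56 and 8.57 in S1. All T4 samples lay below all S1 samples, and 8 of 9 T4R samples did so too. In bulk RNA such as this, fewer cells of a type and less RNA per cell cannot be told apart.

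Among the enzymes of collagen assembly, LOXL2 (probe set 202998_s_at), a secreted lysyl oxidase that cross-links matrix, stood at 6.995, 7.12 and 7.57 in T4R, at 10.59 and 10.16 in T4 samples 1 and 2 and 8.86 in T4 sample 3, and at 7.39, 7.02 and 7.15 in S1. All T4 samples lay above all others, with sample 3 well below samples 1 and 2. This probe set lay below the sample median in 9 of 15 samples and below the lower quartile in 0. P4HA1 (probe set 207543_s_at), a catalytic subunit of collagen prolyl 4-hydroxylase, stood at 8.63, 8.97 and 10.10 in T4R, at 11.40 and 11.39 in T4 samples 1 and 2 and 9.51 in T4 sample 3, and at 9.66, 9.52 and 9.22 in S1. T4 samples 1 and 2 exceeded all other samples, whereas T4 sample 3 lay within the S1 range. P4HA2 (probe set 202733_at), the second catalytic subunit in this set, stood at 9.09, 9.69 and 10.30 in T4R, at 10.16, 9.92 and 8.97 in T4 samples 1, 2 and 3, and at 10.06, 10.07 and 9.61 in S1. The 3 groups overlapped.

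BHLHE40 (probe set 201170_s_at), a transcriptional repressor of the circadian and stress responses, stood at 7.63, 8.29 and 8.79 in T4R, at 11.46, 10.89 and 10.95 in T4 samples 1, 2 and 3, and at 8.43, 8.39 and 7.72 in S1. T4 lay above both other groups in every sample, with sample 3 between the other T4 samples. BNIP3 (probe set 201849_at), a mitochondrial protein that promotes the removal of mitochondria, stood at 9.25, 9.51 and 10.96 in T4R, at 10.45 and 10.41 in T4 samples 1 and 2 and 9.11 in T4 sample 3, and at 10.46, 10.70 and 9.71 in S1. NDRG1 (probe set 200632_s_at), a stress- and differentiation-related gene, stood at 12.30, 12.87 and 13.30 in T4R, at 13.46 and 13.52 in T4 samples 1 and 2 and 11.92 in T4 sample 3, and at 12.89, 12.62 and 11.40 in S1. For BNIP3 and NDRG1 the groups overlapped, T4 sample 3 was the lowest T4 sample, and S1 sample 3 was the lowest S1 sample.

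**Figure D1:**
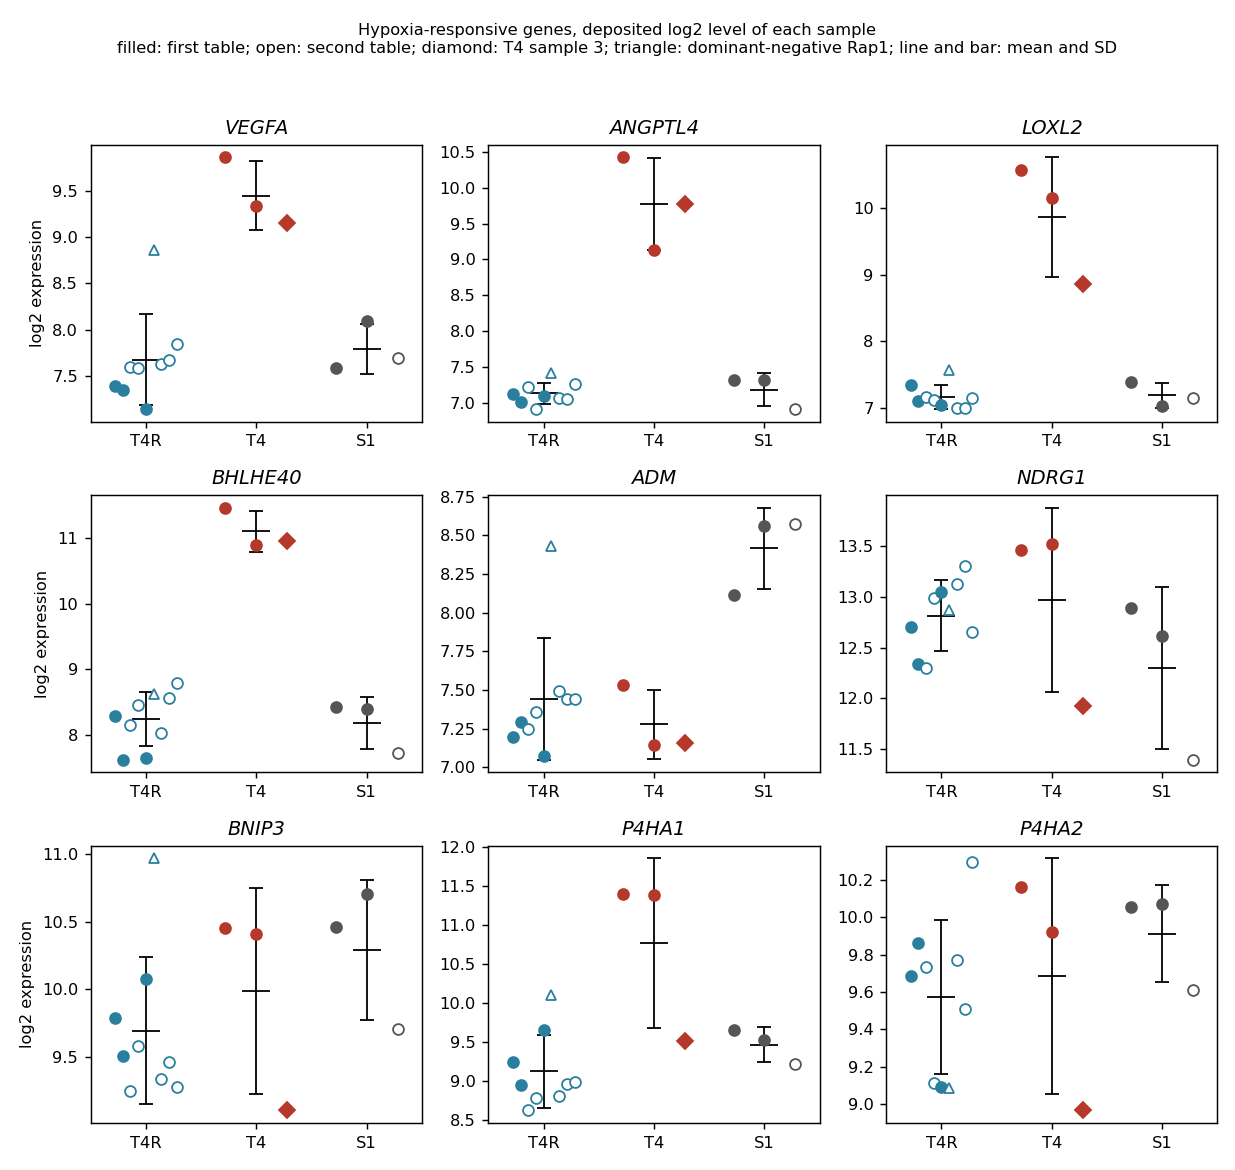
Deposited log2 level (vertical axis) of the 9 measured members in T4R, T4 and S1, with a symbol per sample (filled, first table; open, second table; diamond, T4 sample 3; triangle, dominant-negative Rap1) and the mean and SD of each group. For VEGFA, ANGPTL4, LOXL2 and BHLHE40 all T4 samples lie above all T4R and S1 samples on the probe set shown.

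The first comparison, of T4 with S1, asks what separates the malignant line from its nonmalignant counterpart. T4 held more RNA of VEGFA, ANGPTL4, LOXL2 and BHLHE40 and less of ADM. With limma's moderated test and Benjamini-Hochberg adjustment over all genes tested, 4 of 9 members were higher in T4, against 14.6% of the 9111 genes, and 1 was lower, against 12.3% (26.9% in either direction). The median log2 difference was 1.21 over the members and 0.01 over all genes. Deposited levels of 4 members lay above all S1 samples in every T4 sample, against 19.7% of genes, and of 1 member below, against 17.5%.

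BHLHE40 had the largest difference among the members, 8.03-fold (log2 difference 3.01 ± 0.30 SE, adjusted p = 1.54e-05), with means of 11.10 ± 0.31 in T4 and 8.18 ± 0.40 in S1 (SD, n = 3 each, limma). LOXL2 was 6.40-fold higher (2.68 ± 0.32, adjusted p = 6.6e-05) and ANGPTL4 5.96-fold higher (2.57 ± 0.25, adjusted p = 9.84e-06). VEGFA was 3.45-fold higher (1.79 ± 0.32, adjusted p = 0.00121). ADM was 2.03-fold lower (-1.02 ± 0.25, adjusted p = 0.00858). P4HA1 did not pass, at 1.21 ± 0.46 (adjusted p = 0.0682), nor did NDRG1 (0.60 ± 0.44), BNIP3 (-0.41 ± 0.45) and P4HA2 (-0.26 ± 0.35).

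The second probe set of BHLHE40 gave 1.94 ± 0.25 (adjusted p = 0.00021 in a fit across probe sets), and the 3 other probe sets of VEGFA gave 0.63 to 0.67. One further LOXL2 probe set gave 0.46 ± 0.11. The last gave 0.04 ± 0.05 (adjusted p = 0.659) and lay below the lower quartile in 11 of 15 samples. Within the first table alone, VEGFA (1.61), ANGPTL4 (2.45), LOXL2 (2.66), BHLHE40 (2.69) and ADM (-1.06) kept their calls, with adjusted p of 0.00443 or less. Without T4 sample 3 the differences were 1.94 for VEGFA, 2.58 for ANGPTL4, 3.18 for LOXL2 and 3.08 for BHLHE40, and P4HA1 passed at 1.84 (adjusted p = 0.00231). P4HA1 also passed without dominant-negative Rap1, at 1.16 (adjusted p = 0.0397), without the table term, at 1.30 (adjusted p = 0.0461), with array weights, at 1.71 (adjusted p = 2.55e-05), and with genes below the median of all gene means left out, at 1.21 (adjusted p = 0.0498). A block for the replicate number brought P4HA1 (1.30, adjusted p = 0.0267) and NDRG1 (0.73, adjusted p = 0.0403) past the threshold as well. Without S1 sample 2, ADM missed the threshold (-0.87, adjusted p = 0.0528).

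The second comparison, of T4R with T4, asks what the agents change in the malignant cells. The same T4 samples enter it and the comparison with S1, so a high T4 level counts in both. VEGFA, ANGPTL4, LOXL2, BHLHE40 and P4HA1 were lower in T4R, which is 5 of 9 members, against 8.44% of all genes. Of the members 0 were higher, against 6.46% (14.9% in either direction). The median log2 difference was -1.46 over the members and 0.00 over all genes. In 4 members every T4R sample lay below every T4 sample, against 8.41% of genes, and in 0 members above, against 6.76%.

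BHLHE40 was 8.18-fold lower in T4R (log2 difference -3.03 ± 0.28, limma adjusted p = 2.09e-05), with means of 8.24 ± 0.42 in T4R (SD, n = 9) and 11.10 ± 0.31 in T4 (SD, n = 3). LOXL2 was 6.49-fold lower (-2.70 ± 0.30, adjusted p = 8.68e-05), ANGPTL4 6.12-fold lower (-2.61 ± 0.23, adjusted p = 1.25e-05) and VEGFA 4.09-fold lower (-2.03 ± 0.30, adjusted p = 0.000653). P4HA1 was 2.75-fold lower (-1.46 ± 0.43, adjusted p = 0.0353). In P4HA1, 7 of 9 T4R samples lay below the lowest T4 sample, and the other 2 were LY294002 at 9.65 and dominant-negative Rap1 at 10.10. ADM (-0.06), NDRG1 (-0.02), BNIP3 (-0.07) and P4HA2 (-0.05) did not pass. The 95% intervals of these differences reached from -0.57 to 0.44 for ADM, from -0.90 to 0.87 for NDRG1, from -0.96 to 0.82 for BNIP3 and from -0.75 to 0.64 for P4HA2.

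Within the first table, which holds 3 T4R and 3 T4 samples, BHLHE40 (-3.24), LOXL2 (-2.71), ANGPTL4 (-2.69) and VEGFA (-2.15) kept their calls, with adjusted p of 0.00562 or less, and P4HA1 missed the threshold (-1.48, adjusted p = 0.0821). Without T4 sample 3, P4HA1 differed by -2.09 (adjusted p = 0.00156), LOXL2 by -3.20, BHLHE40 by -3.11, ANGPTL4 by -2.62 and VEGFA by -2.18. The call of P4HA1 ended when GM6001 (adjusted p = 0.078), MMPs and ADAMs (0.0968), T4 sample 1 (0.14), T4 sample 2 (0.126) or S1 sample 2 (0.0517) was left out. In the fit across probe sets, the 3 other VEGFA probe sets gave -0.69 to -0.62, the one at -0.62 missing the threshold (adjusted p = 0.0534), and P4HA1 missed it too (adjusted p = 0.0563).

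The third comparison, of T4R with S1, asks which members still differ from the nonmalignant line under treatment. ADM was 2.13-fold lower in T4R (log2 difference -1.09 ± 0.21, limma adjusted p = 0.00213), with means of 7.44 ± 0.39 in T4R (SD, n = 9) and 8.42 ± 0.26 in S1 (SD, n = 3). It was the 1 member of 9 that was lower, against 11.4% of all genes, and 0 were higher, against 11.8% (23.2% in either direction). Within the first table ADM differed by -1.15 (adjusted p = 0.00468). No member had all T4R samples above or all below S1, against 8.13% and 7.46% of genes. Without the dominant-negative Rap1 sample the ADM difference was -1.16 (adjusted p = 1.48e-05).

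The 4 members with high T4 levels did not pass between T4R and S1, which does not show that their levels were equal. ANGPTL4 and LOXL2 lay below the sample median in 11 and 9 of 15 samples, where small differences are hard to see. The 95% interval of the log2 difference reached from -0.82 to 0.33 for VEGFA, from -0.48 to 0.40 for ANGPTL4, from -0.60 to 0.56 for LOXL2 and from -0.57 to 0.51 for BHLHE40. Of the 9 T4R samples, 7 lay within the S1 range for ANGPTL4, 6 for LOXL2, 5 for VEGFA and 3 for BHLHE40. When the dominant-negative Rap1 sample, T4 sample 3 and S1 sample 3 were all left out, an alternative added after seeing the data, VEGFA (-0.54, adjusted p = 0.0316) and BNIP3 (-0.79, adjusted p = 0.00233) passed beside ADM.

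**Figure D2:**
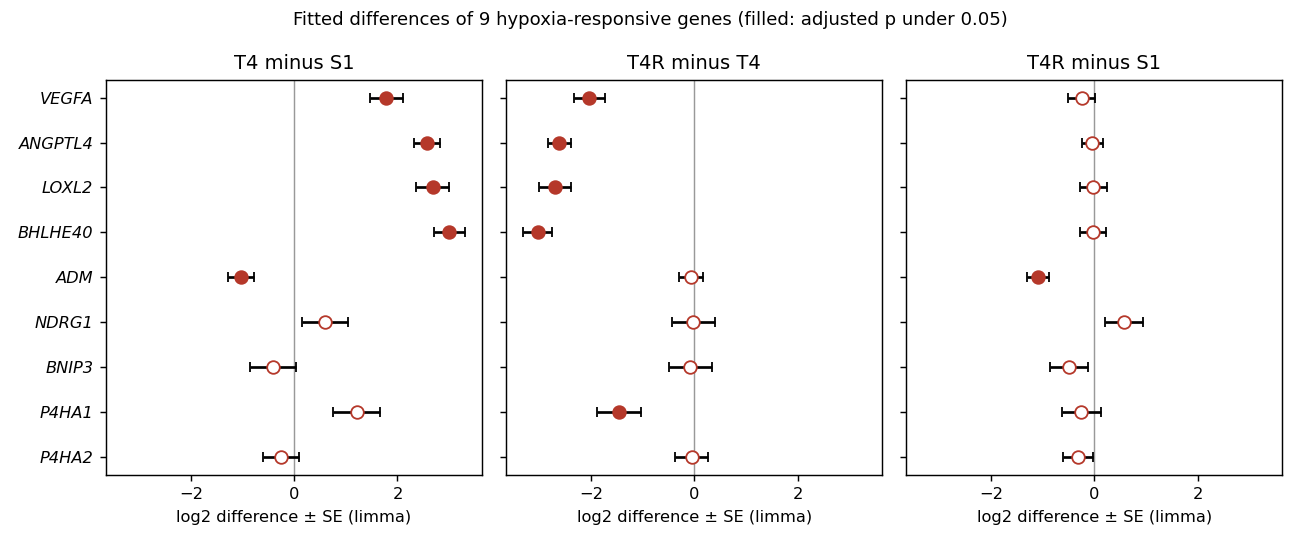
Log2 differences with their SE from the fit over all samples (horizontal axis) for the 9 members, in panels for T4 minus S1, T4R minus T4 and T4R minus S1, with points filled where the adjusted p was under 0.05. LOXL2, BHLHE40, ANGPTL4 and VEGFA lie to the right in T4 minus S1, to the left in T4R minus T4, and near 0 in T4R minus S1.

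With 1 sample per agent, single agents were not tested. For ANGPTL4, the log2 differences of the 9 agents from the T4 mean lay between -2.82 and -2.32 once the fitted table difference was removed, and for LOXL2 between -2.86 and -2.29. For BHLHE40 they lay between -3.47 and -2.57. For VEGFA, 8 agents lay between -2.30 and -1.99 and dominant-negative Rap1 at -0.98. On the brightest probe sets the 4 genes thus lay below the T4 mean under every agent. On the 3 other VEGFA probe sets dominant-negative Rap1 differed from the T4 mean by -0.18, -0.11 and -0.0031 by the same measure, and on 1 of them its deposited level of 7.73 lay above the T4 mean of 7.67.

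Against S1 of the same table, BHLHE40 differed by -0.13 with GM6001, -0.78 with MMPs and ADAMs and -0.76 with LY294002 in the first table. In the second table, where S1 sample 3 is the lone S1 sample, the 6 agents stood 0.32 to 1.07 above it. NDRG1 differed from S1 by -0.42 to 0.29 in the first table and 0.90 to 1.90 in the second. BHLHE40 thus lay below S1 with each agent of the first table and above S1 with each agent of the second. Agents, array type and S1 sample 3 cannot be told apart here.

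**Figure D3:**
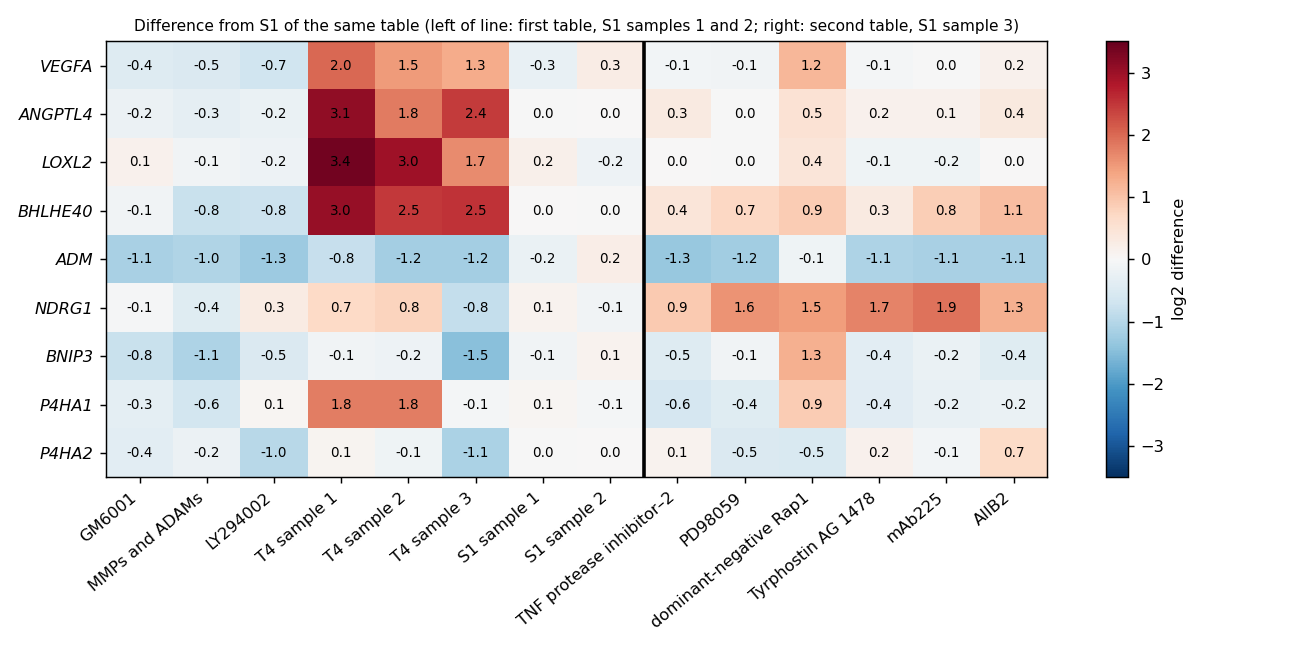
Log2 difference of each sample (columns) from the S1 mean of its own table for each member (rows), with T4R, T4 and S1 samples of the first table left of the line and T4R samples of the second table right of it, red for higher and blue for lower than S1. The T4 columns are red in VEGFA, ANGPTL4, LOXL2 and BHLHE40, and P4HA1 is red in T4 samples 1 and 2 only.

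Agents were also grouped by target into 3 classes of 3: proteases (GM6001, MMPs and ADAMs, TNF protease inhibitor–2), MAPK, PI3K and Rap1 (PD98059, LY294002, dominant-negative Rap1), and EGFR with β1-integrin (Tyrphostin AG 1478, mAb225, AIIB2). Rap1 was placed from knowledge of the study, since no label gives its class. Tyrphostin AG 1478, mAb225 and AIIB2 all lie in the second table, which holds no T4 sample. GM6001 and MMPs and ADAMs lie in the first. Differences between classes and between array types therefore cannot be fully told apart. The contrast of the EGFR and β1-integrin class with T4 rests on the fitted table difference. limma's moderated F-test over the classes called 0 of 9 members and 0 of 9111 genes (0%), with 496 genes (5.44%) at an unadjusted p under 0.05. P4HA2 was the 1 member among those 496, at unadjusted p = 0.0293 and adjusted p = 0.903. Its log2 difference between the EGFR and β1-integrin class and the MAPK, PI3K and Rap1 class was 0.82, with a 95% interval from 0.20 to 1.43. For VEGFA, differences between classes had intervals within -1.01 and 1.03, and for ANGPTL4 within -0.60 and 0.70. Against T4, each class was lower in BHLHE40 (-3.12, -2.95 and -2.76 in the order above) and in LOXL2 (-2.69, -2.67 and -2.88), with adjusted p of 0.00414 or less.

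T4 sample 3 was low in a part of the members. On the brightest probe sets, P4HA1 was 3.69-fold lower in T4 sample 3 than in the mean of T4 samples 1 and 2, NDRG1 2.95-fold, LOXL2 2.86-fold, BNIP3 2.49-fold and P4HA2 2.11-fold. These are 5 of 9 members, against 2.57% of all genes by the same measure, and the median log2 difference was -1.08 over the members. VEGFA differed by -0.45, BHLHE40 by -0.22, ADM by -0.18 and ANGPTL4 by -0.01. The probe sets of 1 gene did not always match: the second BHLHE40 probe set (201169_s_at) was 2.04-fold lower in T4 sample 3, at 8.46 beside 9.55 and 9.43, and the dimmer LOXL2 probe sets differed by -0.43 and 0.04. T4 samples 1 and 2 differed by at most 0.57 in 8 members and by 1.28 in ANGPTL4, where sample 3 lay between them. P4HA1 in T4 sample 3 differed by -0.08 from S1 samples 1 and 2, whereas LOXL2 still stood 1.65 above them and BHLHE40 2.54 above them.

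The same sample was at least 2-fold low in 8 of 20 tested genes of a wider list of HIF targets, against 2.57% of all genes. These were BNIP3L, DDIT4, CA12, LOX, MXI1, ERO1A, INSIG2 and ZNF395. The median over the 20 genes was -0.84. EGLN3, itself a HIF target and a prolyl hydroxylase, was at 6.93 in T4 sample 3 and at 8.80 and 8.22 in T4 samples 1 and 2. By contrast, 1 of 13 HIF targets in glucose use, ALDOC, was at least 2-fold low, with a list median of -0.38. HIF1A itself was highest in T4 sample 3, at 11.95, beside 11.15 and 11.32 in T4 samples 1 and 2. CD14, the 1 tested leukocyte marker, was higher by 1.16 in T4 sample 3 than in the mean of the other T4 samples, and its part in these differences was not tested.

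Dominant-negative Rap1 stood apart among the agents. BNIP3 was 2.99-fold higher in that sample than in the mean of the 5 other agents of the second table, P4HA1 2.40-fold, VEGFA 2.29-fold and ADM 2.05-fold. BNIP3 was at 10.96 with dominant-negative Rap1 and at 9.25 to 9.59 with the 5 others, and VEGFA was at 8.86 with dominant-negative Rap1 and at 7.59 to 7.85 with the others. These 4 of 9 members were at least 2-fold above, against 1.78% of all genes, and 6 of 9 lay above all 5 other agents, against 27.3%. LOXL2 (0.48), ANGPTL4 (0.31), BHLHE40 (0.22) and NDRG1 (0.00) differed less on the log2 scale, and P4HA2 was lower (-0.60). In the wider lists, VEGFC, CITED2, LOX and MXI1 were at least 2-fold above as well, and ZNF395 and EDN1, which are 2 of the 20 other HIF targets, were at least 2-fold below. Markers moved in this sample too. Of 7 mammary epithelial markers, EPCAM and CDH1 were at least 2-fold below and 0 above, with a list median of -0.47. Of 5 fibroblast markers, DCN was at least 2-fold above and COL1A1 at least 2-fold below, with a list median of -0.08. The part of these markers in the differences was not tested. Without it, the calls of VEGFA, ANGPTL4, LOXL2, BHLHE40 and P4HA1 in T4R against T4 held, at -2.07, -2.62, -2.71, -3.04 and -1.49.

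**Figure D4:**
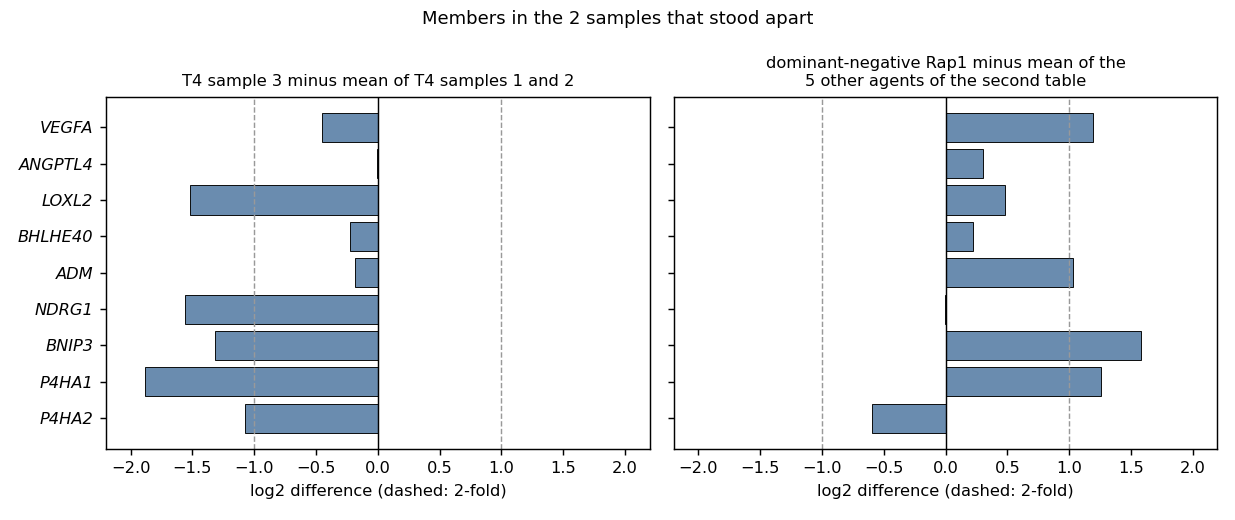
Log2 difference (horizontal axis) of T4 sample 3 from the mean of T4 samples 1 and 2 (left) and of dominant-negative Rap1 from the mean of the 5 other agents of its table (right), for the brightest probe set of each member, with dashed lines at 2-fold. LOXL2, NDRG1, BNIP3, P4HA1 and P4HA2 pass it on the left, and VEGFA, ADM, BNIP3 and P4HA1 on the right.

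In the oxygen-sensing machinery, 3 of 12 tested genes were higher in T4 than in S1 and 1 was lower. Over all genes, 14.6% were higher and 12.3% lower. EPAS1, the second HIF α subunit, stood at 10.12, 10.52 and 11.33 in T4R (lowest, median and highest), at 11.67, 11.81 and 12.03 in T4, and at 10.51, 10.19 and 10.35 in S1. All T4 samples lay above all others. EPAS1 was higher in T4 than in S1 (1.46 ± 0.32, limma adjusted p = 0.00442) and lower in T4R than in T4 (-1.13 ± 0.30, adjusted p = 0.0213). The call in T4R against T4 was lost without T4 sample 3 (adjusted p = 0.073), GM6001 (0.0507) or MMPs and ADAMs (0.0662). HIF1A stood at 11.53, 11.84 and 12.09 in T4R, at 11.15, 11.32 and 11.95 in T4, and at 10.79, 10.99 and 10.64 in S1. It did not share the pattern of EPAS1, since T4R lay above S1 in every sample (1.04 ± 0.16, adjusted p = 0.000434). HIF1A was also higher in T4 than in S1 (0.66 ± 0.19, adjusted p = 0.0203), which missed the threshold without T4 sample 3 (0.42, adjusted p = 0.0703), without S1 sample 1 (0.64) and within the first table (0.58, adjusted p = 0.0813). It did not pass between T4R and T4 (0.38 ± 0.18).

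EGLN3 was higher in T4 than in S1 (1.09 ± 0.32, adjusted p = 0.0221) and lower in T4R than in T4 (-1.14 ± 0.30, adjusted p = 0.0205). Both calls were lost in the first table alone and without T4 sample 1 or T4 sample 2. The EGLN3 means of 6.94 in S1 and 6.94 in T4R lay below 6.97, the lowest mean that the filter kept. EGLN3 was therefore tested only through its level in T4, and it lay below the lower quartile in 4 samples. CITED2, which competes with HIF for its coactivators and is itself induced by HIF, ran the other way, with -2.25 ± 0.41 in T4 against S1 (adjusted p = 0.00138) and 2.19 ± 0.38 in T4R against T4 (adjusted p = 0.00223). In T4R, 1 of 12 genes of the list was higher and 2 lower than in T4, against 6.46% and 8.44% of all genes. Compared with S1, 1 was higher and 1 lower in T4R, against 11.8% and 11.4%. The lower one was EGLN2 (-0.27 ± 0.09, adjusted p = 0.0442), whose call ended under 13 of 28 alternatives.

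HIF targets in glucose use were higher in T4 than in S1 in 6 of 13 tested genes and lower in 1. The shares over all genes were 14.6% and 12.3%. Relative to T4, 5 of 13 were lower in T4R and 0 were higher, against 8.44% and 6.46% of all genes. The list medians were 0.51 and -0.47. LDHA, which makes lactate from pyruvate, was higher in T4 than in S1 by 0.60 ± 0.13 (limma adjusted p = 0.0036) and differed by -0.62 ± 0.12 in T4R against T4 (adjusted p = 0.00413). PFKFB3, which makes an activator of glycolysis, had 0.70 ± 0.19 (adjusted p = 0.0134) and -0.71 ± 0.17 (adjusted p = 0.0145) in the same comparisons. PFKL was higher in T4 than in S1 (0.64 ± 0.19), and TPI1 was lower in T4R than in T4 (-0.70 ± 0.19). GBE1, the glycogen branching enzyme, was lower both in T4 (-1.05 ± 0.26) and in T4R (-1.21 ± 0.22) than in S1. Without T4 sample 3, PFKFB3 missed the threshold in both comparisons, and without S1 sample 1 it did so in T4 against S1. PFKL lost its call without T4 sample 1 or 2 or S1 sample 1 or 2, TPI1 without LY294002 or any 1 T4 sample, and GBE1 in T4 without S1 sample 2.

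Among 20 other tested HIF targets, 4 were higher and 2 lower in T4 than in S1, against 14.6% and 12.3% of all genes. In T4R against T4, 4 were lower and 0 higher, against 8.44% and 6.46%. PLOD2, a lysyl hydroxylase of collagen, was higher in T4 (2.19 ± 0.32) and in T4R (1.13 ± 0.26) than in S1. It was also lower in T4R than in T4 (-1.06 ± 0.29, limma adjusted p = 0.0274), a call not followed across the alternatives. TFRC, the transferrin receptor, was higher than in S1 both in T4 (1.29 ± 0.23) and in T4R (0.89 ± 0.19, a call lost without S1 sample 3, at 0.61). ERO1A, which drives disulfide formation, was higher in T4 than in S1 (1.48 ± 0.33) and lower in T4R than in T4 (-1.14 ± 0.30), a call lost without GM6001, MMPs and ADAMs, LY294002, T4 sample 1 or T4 sample 2. CXCR4, a chemokine receptor, was lower in T4 (-1.12 ± 0.09) and in T4R (-1.02 ± 0.07) than in S1. Its means of 6.86 in T4 and 6.94 in T4R lay below 6.97, the lowest mean that the filter kept. CXCR4 was therefore tested only through its S1 mean of 7.97, and it lay below the lower quartile in 5 samples. STC2, a secreted glycoprotein, was lower in T4R than in T4 (-1.25 ± 0.26) and than in S1 (-1.96 ± 0.23). ZNF395 was lower in T4 than in S1 (-1.71 ± 0.49), a call lost without S1 sample 1, S1 sample 2 or T4 sample 3. P4HB, the partner subunit of P4HA1 and P4HA2, was lower in T4R than in T4 (-0.50 ± 0.12), a call lost when a replicate block took the place of the table (-0.34, adjusted p = 0.0543). The largest limma adjusted p of these calls was 0.0274.

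Of 9 tested VEGF and adrenomedullin relatives and receptors, 1 was higher and 2 lower in T4 than in S1. Over all genes, 14.6% were higher and 12.3% lower. VEGFC, a growth factor for lymph vessels, was higher in T4 than in S1 (2.57 ± 0.38, limma adjusted p = 0.000325) and lower in T4R than in T4 (-2.60 ± 0.36, adjusted p = 0.000396). RAMP1, a partner of calcitonin-family receptors, was lower in T4 than in S1 (-1.72 ± 0.32, adjusted p = 0.00145) and higher in T4R than in T4 (0.94 ± 0.30, adjusted p = 0.0483), the second call ending under 18 of 29 alternatives. NRP1, a coreceptor for VEGFA, was lower in T4 (-0.94 ± 0.27, adjusted p = 0.021) and in T4R (-1.68 ± 0.23, adjusted p = 0.000176) than in S1, the call in T4 being lost without T4 sample 1 or 2. Of 10 tested relatives of the members, 1 was higher and 1 lower in T4 than in S1, and 1 higher and 2 lower in T4R than in T4. The shares over all genes were 14.6% and 12.3% in T4 against S1, and 6.46% and 8.44% in T4R against T4. NDRG3, a relative of NDRG1, was lower in T4 than in S1 (-1.07 ± 0.15, adjusted p = 0.000208) and higher in T4R than in T4 (0.64 ± 0.14, adjusted p = 0.00851). BNIP1 was higher in T4 than in S1 (0.40 ± 0.11), and the collagen hydroxylase gene PLOD3 was lower in T4R than in T4 (-0.77 ± 0.18). In T4R against S1, RAMP1 (-0.78), PLOD3 (-0.47), NDRG3 (-0.43) and BNIP2 (0.32) passed, and each lost its call when some 1 sample was left out.

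Markers of other cell types were set beside these genes. Over all genes, 14.6% were higher and 12.3% lower in T4 than in S1. The shares were 6.46% and 8.44% in T4R against T4, and 11.8% and 11.4% in T4R against S1. Of 2 tested endothelial markers 0 passed in any comparison. CD14 was higher in T4 (0.97 ± 0.26, limma adjusted p = 0.0132) and in T4R (0.77 ± 0.21, adjusted p = 0.0183) than in S1. Of 5 tested fibroblast markers, COL1A1 (1.46 ± 0.43) and COL3A1 (0.21 ± 0.07) were higher in T4R than in S1, and 0 passed in the other comparisons. COL3A1 was dim, with means of 7.06 in T4R and 6.85 in S1. The S1 means of COL3A1 and of CD14 (6.95) lay below 6.97, the lowest mean that the filter kept. Both genes were therefore tested only through their levels in T4R and T4. Of 7 tested mammary epithelial markers, 1 was higher in T4 than in S1, 1 was higher and 2 were lower in T4R than in T4, and 1 was higher in T4R than in S1, with list medians of -0.11, 0.32 and 0.15. KRT18, a keratin of simple epithelium, was higher in T4 than in S1 (0.98 ± 0.21) and lower in T4R than in T4 (-1.07 ± 0.19). The cadherin CDH3 was also lower in T4R than in T4 (-0.54 ± 0.14), whereas the adhesion molecule EPCAM was higher (0.93 ± 0.24, limma adjusted p = 0.0214). KRT8, the partner keratin of KRT18, was higher in T4R than in S1 (0.71 ± 0.22, limma adjusted p = 0.0342). The part of such cells in the results above was not tested.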

How the data were processed

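Per the labels' protocols, Trizol was used to extract total RNA of the 15 samples, which was then labelled with biotin. The deposited values are log2 expression per probe set in 2 tables, one per array type. The log2 scale was read from the values the authors deposited, and the sources used here do not give their summarisation, background correction or normalization. Detection calls were not used, and the precision is limited by the number of arrays. Of 22215 probe sets, the platform annotations gave 1 gene to 19707, several to 614 and none to 1706, and for 188 the 2 annotations differed. Symbols were updated through NCBI's RefSeq gene table. Every sample column was used (0 left out).

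Genes were tested with limma 3.58.1 in R 4.3.3 (lmFit and eBayes, 2-sided, threshold 0.05 after Benjamini-Hochberg adjustment over 9111 genes), in 1 fit over all 15 samples with group and table as terms. Levels and SDs are of the deposited values, and differences, SEs and 95% intervals come from the fit. T4 samples lie in the first table only, so the contrast with second-table agents runs through S1 and the first-table agents. The procedure was tested on simulated data. All members are named, and of each wider list up to 3 genes per direction and comparison with the smallest adjusted p. The call of PLOD2 in T4R against T4 is given in addition. Members and lists were chosen with earlier results of these data known. Same-numbered T4 and S1 samples deviated together (correlations of deviations from the group means of 0.28, 0.31 and 0.39), so the replicate number was tried as a block. This pairing comes from the data and not from a label, samples 1 and 2 also correlated when crossed (0.29 and 0.31), and the third pair spans both tables. Alternatives covered the probe set, the filter, the table block, quantile normalization, array weights, the first table alone, the samples in the fit and each sample left out.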

Additional observations from a re-analysis of the deposited data

Results flagged for a closer look

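Among the 9 T4R samples, dominant-negative Rap1 lay far from the rest in 3 of the 9 members once the table difference was removed. By the same measure this sample lay far from the rest in 8.57% of the 9111 genes tested (4.68% high and 3.9% low), and the other agents in 0.0878% to 2.4%. With the table difference removed, VEGFA was at 8.47 with dominant-negative Rap1. The gap to the next agent, AIIB2 at 7.46, took a share of 0.763 of the range over the agents. On the same scale ADM was at 8.09 with dominant-negative Rap1, with a share of 0.67 and MMPs and ADAMs, at 7.296, next to it. BNIP3 was at 11.29 with dominant-negative Rap1, with a share of 0.684 and LY294002, at 10.08, next to it. The deposited levels with dominant-negative Rap1 were 8.86 for VEGFA, 8.43 for ADM and 10.96 for BNIP3. Each share exceeded Dixon's critical value for 9 samples, which chance exceeds in about 5% of groups of replicates. The 9 T4R samples are different treatments and not replicates, so that rate need not hold for them.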

How the results depend on the processing

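The T4 against S1 and T4R against T4 calls of VEGFA, ANGPTL4, LOXL2 and BHLHE40 held under every alternative run, although the mean of all probe sets lowered VEGFA to 0.93 and -1.01 and LOXL2 to 1.06 and -1.07. Members called numbered 4 to 6 higher in T4 against S1 and 4 to 7 lower in T4R against T4. With array weights, the genes called were 2246 higher and 1934 lower in T4 against S1, 1482 and 1678 in T4R against T4, 2007 and 1847 in T4R against S1 with 2 members lower, and 18 by class. NDRG1 (0.71) and P4HA1 (1.71) then passed in T4 against S1, NDRG1 (-0.77) and BNIP3 (-0.64) in T4R against T4, and BNIP3 (-0.81) in T4R against S1. With the genes below the median of all gene means left out, ADM was not tested, so 0 members were lower in T4 against S1 and in T4R against S1. With dominant-negative Rap1, T4 sample 3 and S1 sample 3 left out at once, an alternative added after seeing the data, 3 members were lower in T4R against S1 and 2 genes passed by class, P4HA1 passed in T4 against S1 (1.80, adjusted p = 3.04e-05), and BNIP3 passed in T4R against T4 (-0.63, adjusted p = 0.0122). Leaving out each sample gave 0 to 1 members lower in T4 against S1, 373 to 707 genes higher in T4R against T4 and 0 to 10 genes by class. Uncalled differences that changed sign, with the cause not tested, were as follows. In T4R against T4, ADM was 0.023 with a random table block, 0.17 with none and 0.17 with a replicate block in place of the table, and P4HA2 was 0.00044 with quantile normalization within tables. In T4R against S1, BHLHE40 was 0.0073, 0.063 and 0.063 under the same 3 table settings, and NDRG1 was -0.064 with array weights and -0.061 within the first table and with those 3 samples left out. Leaving out single samples moved BNIP3 between -0.64 and 0.028 and P4HA2 between -0.50 and 0.10 in T4 against S1. In T4R against T4 it moved ADM between -0.13 and 0.065, NDRG1 between -0.54 and 0.26, BNIP3 between -0.51 and 0.16 and P4HA2 between -0.41 and 0.185. In T4R against S1 it moved ANGPTL4 between -0.24 and 0.018, LOXL2 between -0.10 and 0.074, BHLHE40 between -0.56 and 0.13 and NDRG1 between -0.061 and 0.82. The replicate block changed no call of a member other than P4HA1 and NDRG1 in T4 against S1. Without the table in that fit, P4HA1 (1.30, adjusted p = 0.0197) passed in T4 against S1, and of the named list genes PFKL (0.52) in T4 against S1, P4HB (-0.34) in T4R against T4, and BNIP2 (0.16) and PLOD3 (-0.35) in T4R against S1 lost their calls.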
